A study of Rattus norvegicus with 24 samples.

Results

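The comparison concerned the cerebellum of rat pups on postnatal day 7, after their mothers had or had not received Aroclor 1254 during gestation and nursing. Aroclor 1254 is a commercial mixture of polychlorinated biphenyls (PCBs), persistent industrial chemicals that pass from mother to pup through the placenta and the milk. The members were the arrays labelled as cerebellum of that age, 6 of the 24 arrays of the series, and no measured value was used to choose them. The 3 dosed dams, numbered 12, 15 and 18, received 6 mg/kg/day in corn oil by gavage starting on gestation day 6 and lasting until sampling on postnatal day 7. The 3 undosed dams, numbered 1, 7 and 13, received 0 mg/kg/day over the same days. All dams were Long-Evans rats, and 1 male pup per litter was taken at each age, so each array stands for 1 litter and the pups were exposed only through their mother. Hippocampus of the same dams, and both tissues on postnatal day 14, make up the rest of the series, which was designed to follow gene expression during development.

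At this age the rat cerebellum is still being built. Granule cell precursors divide in the outer layer and then migrate inwards, Purkinje cells extend their dendrites, and inhibitory and excitatory synapses form, on a schedule that depends on thyroid hormone. PCB mixtures are known for lowering circulating thyroxine, for activating the aryl hydrocarbon receptor (AhR), a ligand-activated transcription factor that induces detoxifying enzymes such as Cyp1a1, and, for congeners with chlorines next to the ring junction, for disturbing intracellular calcium. The exposure of the pups, their thyroid hormone and their calcium signals are not part of the values analysed here.

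Values were the deposited log2 signals of an Affymetrix rat array, on which a difference of 1 is a doubling. Of 15866 probe sets that were not controls, 9520 had a mean over the 6 arrays at or above the 40th percentile, at 6.89, and are called expressed. They named 6955 genes, each represented by its expressed probe set of highest mean. The 6 arrays had medians between 7.46 and 7.48 and correlated with each other at r = 0.987 to 0.992 across probe sets, which are not independent. The 3′ minus 5′ signal of beta-actin, a measure of RNA degradation, was 0.55 to 0.73 in the dosed and 0.64 to 0.68 in the undosed arrays. Xist, the transcript that marks the inactive X chromosome of female cells, was at 10.52 in the undosed array of dam 13 and between 4.06 and 4.20 in the other 5, although every pup was labelled male. The count over all genes and the counts for meninges, cell cycle, inhibitory receptors and presynaptic genes are also given without this array. A cerebellum array of postnatal day 14, from undosed dam 13, had a median of 7.91 and correlated at 0.623 to 0.660 with the others. It belongs to neither group and was left out of the fit, which held the other 23 arrays. Of these 23, 4 had a high Xist level, and all 4 were undosed. They were the arrays of dam 13 on day 7 and of dam 1 on day 14, in both tissues.

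The tissue label was checked against defining markers. The Purkinje cell genes Pcp2, Pcp4, Calb1 and Car8 lay between 10.05 and 12.07 in all 6 arrays, and Neurod1, a transcription factor of granule neurons, between 11.79 and 12.15. None of 14 brainstem marker genes on the array and 1 of 4 forebrain neuron genes passed the expression filter. Transthyretin (Ttr) and other choroid plexus transcripts, and collagens and other transcripts of the meninges, were present in every array.

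No gene passed the test of the dosing difference. No probe set passed an adjusted p of 0.05 (limma, Benjamini-Hochberg over the 9520 probe sets; 0% called), and the smallest adjusted p was 0.288. At an unadjusted p under 0.05 there were 515 probe sets, 5.41% of those tested, where 476 would be expected from the threshold alone. The count was 319 without the undosed array of dam 13 and between 344 and 594 without any single other array. Removing the undosed array of dam 1 gave 2 probe sets past the adjusted threshold; of the genes described below, Asah1 was one of them. The median difference over the 6955 genes was 0.02, 95% of genes lay within 0.22 of 0 in either direction, and no gene differed by 1 or more. Because no gene passed the threshold, "higher" and "lower" below give the direction of a measured mean difference and not a detected change.

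More genes had a higher than a lower mean in the dosed pups. The mean was higher in 57.1% and lower in 42.9% of genes. The 3 dosed values lay above all 3 undosed values for 735 genes, or 10.6%, and below them for 343, or 4.93%. Split by signal level, the share with a higher mean in 4 equal classes was 47.5% in the weakest and 58.0%, 61.1% and 62.0% in the 3 stronger ones, so the lean was absent in the weakest genes. These shares are the background against which each group of genes below is read.

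The smallest p in the comparison belonged to Atp1b2, the beta-2 subunit of the sodium-potassium pump, which is found in glia and also works as an adhesion molecule. Its values were 9.30, 9.35 and 9.24 in the dosed litters of dams 12, 15 and 18 and 9.00, 8.93 and 8.81 in the undosed litters of dams 1, 7 and 13. Every dosed pup was above every undosed pup. The difference was 0.38 ± 0.07 (SE, n = 3 and 3; 95% interval 0.23 to 0.54), a 1.30-fold higher signal, with an adjusted p of 0.288 (limma).

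**Figure D1:**
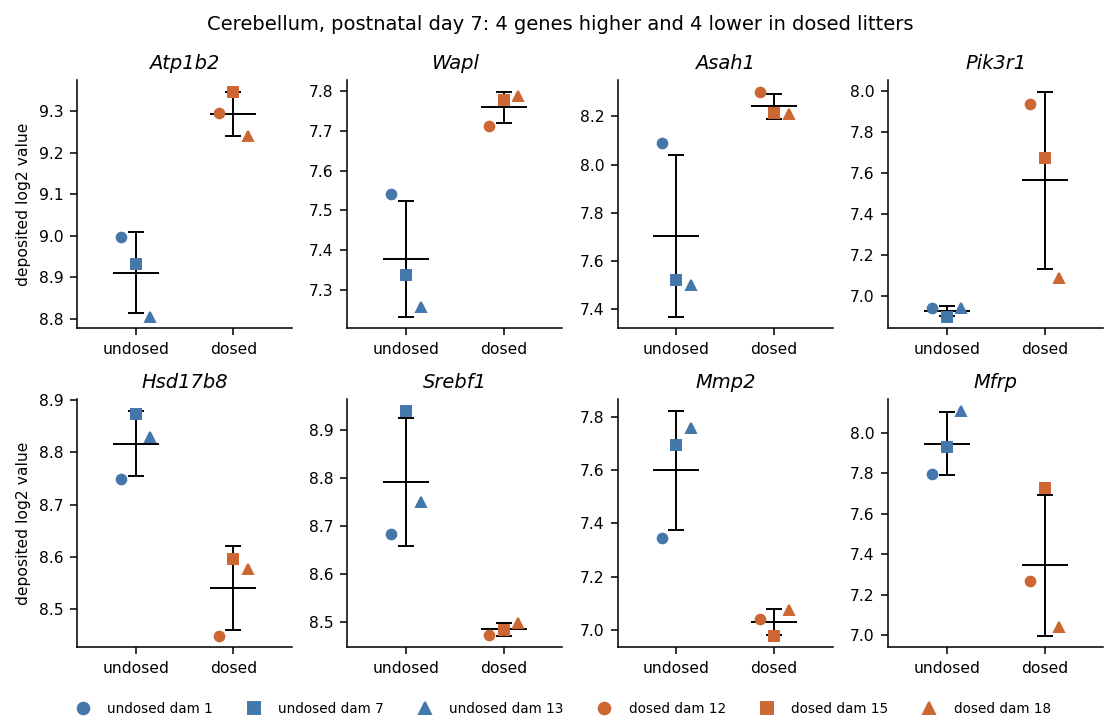
Deposited log2 values (vertical axis, a separate scale in each panel) of 4 genes with a higher and 4 with a lower mean in the dosed litters; each symbol is the pup of 1 dam, the horizontal bar is the group mean and the whiskers are 1 SD (n = 3). In all 8 panels the dosed and undosed litters do not overlap, and no gene passed an adjusted p of 0.05; Mfrp and Pik3r1 spread most among the dosed litters.

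The next genes by p, each ranked by its representing probe set, were Wapl, Syncrip and Asah1. Over all probe sets the second smallest p belonged to a Lig3 probe set that does not represent its gene. It differed by 0.44 ± 0.09 (adjusted p = 0.288, limma) and is described below. Some probe sets without a single gene symbol also ranked before these genes. Wapl, which releases cohesin from chromosomes, was at 7.71, 7.78 and 7.79 in the dosed litters and at 7.54, 7.34 and 7.26 in the undosed litters. Its difference was 0.38 ± 0.09 (adjusted p = 0.538, limma). Syncrip, an RNA-binding protein that travels with transcripts in dendrites, was at 9.65, 9.78 and 9.53 in the dosed and at 9.38, 9.13 and 9.21 in the undosed litters, a difference of 0.41 ± 0.10. Asah1, the acid ceramidase that breaks down ceramide in lysosomes, was at 8.30, 8.21 and 8.21 in the dosed litters and at 8.09, 7.52 and 7.50 in the undosed litters. Its groups did not overlap, but the undosed litter of dam 1 lay much closer to the dosed litters than the other two did. The difference of 0.54 ± 0.14 (adjusted p = 0.538, limma) became 0.73 (adjusted p = 0.0401, limma) without that litter, the only setting of those tried in which Asah1 was called. Each of these 3 genes has a second expressed probe set of lower signal, on which the groups overlapped. There the differences were 0.14 for Wapl, 0.05 for Syncrip and 0.09 for Asah1. With the expressed probe sets of a gene averaged, Syncrip differed by 0.23 and Asah1 by 0.32.

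L1cam, an adhesion molecule of axons, was at 10.53, 10.41 and 10.54 in the dosed litters and at 10.37, 10.09 and 10.07 in the undosed litters, a difference of 0.32 ± 0.08. Ntrk2, the receptor for brain-derived neurotrophic factor, differed by 0.32 ± 0.09, with 9.88, 9.67 and 9.74 in the dosed against 9.53, 9.34 and 9.46 in the undosed litters. A second Ntrk2 probe set disagreed, at -0.07 with overlapping groups, and the mean of both gave 0.12. Kif3a, a kinesin motor subunit, differed by 0.40 ± 0.10, and the dosed values again lay above all undosed values. Akap11, an anchor of protein kinase A, differed by 0.34 ± 0.09. The endosomal proteins Ndfip2 and Stard3nl differed by 0.32 ± 0.08 and 0.38 ± 0.10. Each of these genes had an adjusted p of 0.538 (limma).

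The largest differences with separate groups were seen for Pik3r1, the regulatory subunit of phosphatidylinositol 3-kinase that couples insulin and growth factor receptors to the lipid kinase. It was at 7.94, 7.67 and 7.09 in the dosed litters and at 6.94, 6.90 and 6.94 in the undosed litters. The undosed litters were nearly identical, while the dosed litters fanned out from just above them to 1 unit higher. The difference was 0.64 ± 0.19 (adjusted p = 0.550, limma). Coq10b, a mitochondrial coenzyme Q binding protein, was at 7.20, 7.22 and 7.19 in the dosed and at 6.76, 6.76 and 6.42 in the undosed litters, 0.55 ± 0.22. Nptx1, neuronal pentraxin 1, which clusters AMPA receptors at synapses, was at 7.65, 8.03 and 7.79 against 6.89, 7.52 and 7.52, 0.52 ± 0.20. Lbr, the lamin B receptor of the nuclear envelope, was 0.49 ± 0.14 higher. The largest mean difference of all, 0.92 for Jund, came with overlapping groups: its undosed litters alone ran from 5.04 to 8.13.

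On the lower side the smallest p belonged to Hsd17b8, a mitochondrial dehydrogenase of steroids and of fatty acid synthesis. It was at 8.45, 8.60 and 8.58 in the dosed litters and at 8.75, 8.87 and 8.83 in the undosed litters. The difference was -0.28 ± 0.07 (95% interval -0.42 to -0.13; adjusted p = 0.538, limma), with every dosed pup below every undosed pup. Srebf1, the sterol regulatory factor that drives fatty acid synthesis, was nearly constant in the dosed litters at 8.47, 8.48 and 8.50, below the undosed 8.68, 8.94 and 8.75. Its difference was -0.31 ± 0.08. The guanine nucleotide exchange factor Dock5, at 6.94, 6.93 and 6.73 in the dosed against 7.16, 7.15 and 7.28 in the undosed litters, differed by -0.33 ± 0.09, at a signal close to the expression filter.

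A pair of extracellular proteins of connective tissue and plasma followed. Mmp2, the gelatinase made by meningeal fibroblasts, was at 7.04, 6.98 and 7.07 in the dosed litters and at 7.34, 7.69 and 7.76 in the undosed litters, a difference of -0.57 ± 0.17 (adjusted p = 0.618, limma). A second expressed Mmp2 probe set differed by -0.06 with overlapping groups, and the mean of both gave -0.31. Serping1, the C1 inhibitor of the complement system, was at 7.06, 6.96 and 6.87 against 7.26, 7.40 and 7.26, a difference of -0.34 ± 0.10. For Serping1, and for the Mmp2 probe set of higher signal, the groups were separate. Sapcd1 (-0.39 ± 0.11), Bloc1s2, a subunit of a complex that builds lysosome-related organelles (-0.32 ± 0.09), the vesicle fusion protein Vamp8 (-0.30 ± 0.10) and the kinase Map2k5 (-0.20 ± 0.07) also had separate groups. Snph, syntaphilin, which docks mitochondria in axons, was at -0.29 ± 0.09 with overlapping groups. Among larger differences with separate groups were Arrdc3, an arrestin-domain protein (-0.49 ± 0.19), and Slc6a13, a GABA and taurine transporter of the meninges (-0.40 ± 0.20).

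The lowest mean differences included choroid plexus and meningeal genes, and most of them were lowest in the litter of dam 18. Of 11 genes lower by over 0.5, 10 had their lowest value in the array of dam 18, and 4 were on the choroid plexus or meninges lists; none of the 6 genes higher by over 0.5 was on either list. The choroid plexus secretes cerebrospinal fluid, and Ttr, its main product, carries thyroxine in that fluid. Ttr was at 12.67, 12.95 and 11.52 in the dosed litters and at 12.84, 13.45 and 13.11 in the undosed litters. The dosed values overlapped the undosed ones, and the litter of dam 18 stood more than 1 unit below the other dosed litters. The mean difference was -0.75 ± 1.41 (adjusted p = 0.999, limma), with a 95% interval of -3.69 to 2.18. This error is pooled over the 8 groups of the fit, and Ttr spread far more in others of them: the SD was 0.76 and 0.31 in the dosed and undosed groups described here and 3.58 in dosed cerebellum on day 14. Without the litter of dam 18 the difference was -0.32.

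Sostdc1 and Enpp2 had the same low litter. Sostdc1, a secreted antagonist of bone morphogenetic proteins, was at 8.03, 8.62 and 7.06 in the dosed and at 8.30, 8.71 and 9.06 in the undosed litters (-0.79 ± 0.41). Enpp2, autotaxin, was at 9.29, 9.65 and 8.64 against 9.41, 10.21 and 10.24 (-0.76 ± 0.41). Without that litter Sostdc1 differed by -0.37 and Enpp2 by -0.48; without the undosed litter of dam 13 they differed by -0.60 and -0.62. Kcne2, a potassium channel subunit, was the member with separate groups, at 6.77, 6.83 and 6.82 against 7.02, 7.14 and 7.04 (-0.26 ± 0.12, adjusted p = 0.907, limma). All 8 expressed genes of the 17 on the array were lower in the mean, with a median of -0.32, where 42.9% of all genes were lower. The mean level of the list was 8.44, 8.63 and 8.06 in the dosed and 8.58, 8.98 and 8.89 in the undosed litters, so 1 dosed litter lay within the undosed range. Without the litter of dam 18 the median was -0.29, and at the stricter filter, which keeps fewer members, it was -0.76. The groups were separate and lower for 1 member, or 12.5% against 4.93% of all genes. The number of members lower at an unadjusted p under 0.05 was 1, or 12.5% against 1.35% of all genes. With only the 6 arrays fitted it was 6, while the count over all probe sets rose from 515 to 967. Mfrp, not on the list, was at 7.27, 7.73 and 7.04 against 7.80, 7.93 and 8.11 (-0.60 ± 0.29). Htr2c (-0.69), Clu (-0.67), Alox15 (-0.63) and Slc13a4 (-0.54) were likewise lowest in the litter of dam 18; these 4, like Jund above and Cdkn1c below, were named after their values were seen.

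Genes of the meninges and fibroblasts leaned the same way. Of 25 expressed genes 24 had a lower mean, with a median of -0.20. The groups were separate and lower for 4 members, 16.0% against 4.93% of all genes, and 4 had an unadjusted p under 0.05, 16.0% against 1.35% of all genes. Lgals1, galectin 1, was at 8.73, 8.78 and 8.47 in the dosed litters and at 8.89, 9.05 and 8.99 in the undosed litters (-0.31 ± 0.13, adjusted p = 0.907, limma). Ptgds, which makes prostaglandin D2 in the arachnoid, showed the lowest difference of all genes, -0.90 ± 0.56, from 11.88, 11.05 and 10.16 in the dosed and 11.87, 11.64 and 12.29 in the undosed litters. Here the litter of dam 12 matched the undosed litters and the litter of dam 18 was far below. Col1a2, a collagen I chain, at 10.64, 10.29 and 10.11 against 10.43, 10.65 and 10.95, and Igf2, insulin-like growth factor 2, at 11.59, 11.34 and 11.11 against 11.43, 11.60 and 11.62, overlapped in the same way. Aldh1a2, the retinoic acid synthesising enzyme of the meninges, was at 8.37, 8.34 and 7.93 against 8.60, 8.54 and 8.66, with separate groups (-0.39 ± 0.21). Islr (-0.29), Crabp2 (-0.41) and Col5a1 (-0.21), the other 3 at an unadjusted p under 0.05, had overlapping groups. Without the litter of dam 18 none of the members had an unadjusted p under 0.05 and the median was -0.13; without the undosed litter of dam 13 there was 1, without dam 15 there was 1, and without dam 12 there were 7. With only the 6 arrays fitted there were 10, where the count over all probe sets was 967, and with all 24 there was 1. Single litters also set the sizes: without dam 18 Ptgds differed by -0.47, Aldh1a2 by -0.24, Col1a2 by -0.21 and Igf2 by -0.082. Cdkn1c, an inhibitor of cyclin-dependent kinases, was at 10.21, 9.63 and 9.30 against 10.16, 10.36 and 10.70 (-0.69 ± 0.24, adjusted p = 0.842, limma).

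Blood markers were lower in the mean, with overlapping groups. Beta-globin (Hbb) was at 12.20, 12.65 and 11.91 in the dosed litters and at 12.44, 12.90 and 12.70 in the undosed litters (-0.43 ± 0.30). Alas2, the haem synthesis enzyme of red cells, was at -0.45 ± 0.48 and Slc4a1, the red cell anion exchanger, at -0.21 ± 0.18, both with overlapping groups. The mean of the 3 genes ran from 8.94 to 9.57 in the dosed and from 9.38 to 9.83 in the undosed litters. Without the litter of dam 18 Hbb differed by -0.26 and Alas2 by -0.29. Of 12 expressed endothelial genes 9 were lower, with a median of -0.03 that was -0.10 without the undosed litter of dam 1. The groups were separate and lower for 2 of them, Slco1a4 and Egfl7, or 16.7% against 4.93% of all genes; these 2 were named after their values were seen. The mean of the endothelial list ran from 8.61 to 8.64 in the dosed and from 8.66 to 8.70 in the undosed litters. Pericyte and smooth muscle genes (7 expressed) had a median of -0.09 and microglial genes (11 expressed) of -0.03, where all genes had 0.02. The share of these tissues in the dissected samples was not measured otherwise, and in whole tissue fewer cells of a type and less RNA per cell cannot be told apart. Their part in the dosing differences of other genes was not tested.

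**Figure D2:**
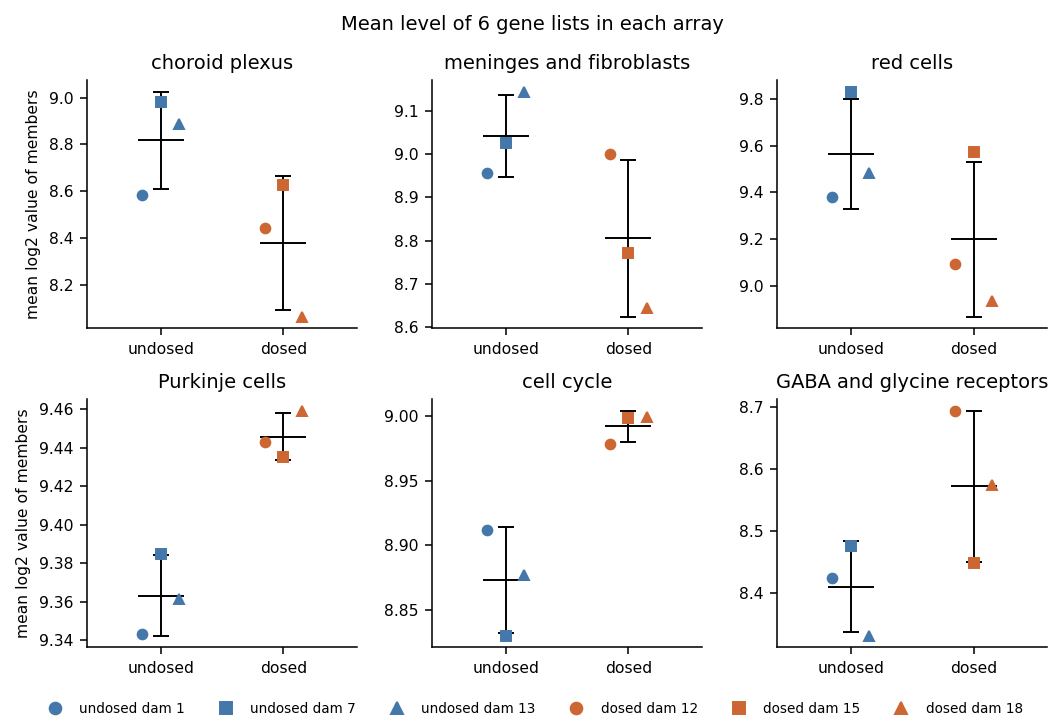
Mean deposited log2 value of the expressed members of 6 gene lists (vertical axis, a separate scale in each panel) in each litter, with the group mean and 1 SD (n = 3). The litter of dam 18 is the lowest of the 6 for choroid plexus, meninges and red cells, while the Purkinje cell and cell cycle means lie higher in all 3 dosed litters than in all 3 undosed ones.

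Among neurons, markers of Purkinje cells, the output neurons of the cerebellar cortex, differed little and mostly upwards. Of 12 expressed genes 9 had a higher and 3 a lower mean, with a median of 0.09 and a lowest difference of -0.11. The groups were separate and higher for 3 members, where 10.6% of all genes were separate and higher. They were separate and lower for 1 member, where 4.93% of all genes were. The members named here were all higher. Car8, a carbonic anhydrase related protein that acts on the inositol trisphosphate receptor, was at 10.62, 10.41 and 10.39 in the dosed litters and at 10.31, 10.28 and 10.05 in the undosed litters. These did not overlap, and the difference was 0.26 ± 0.10 (adjusted p = 0.903, limma). Calb1, the calcium buffer calbindin, was at 11.22, 11.19 and 11.17 against 11.04, 11.13 and 11.01 (0.14 ± 0.09), and Pcp4, a calmodulin-binding peptide, at 12.07, 12.07 and 12.03 against 11.94, 11.92 and 11.88 (0.14 ± 0.10). Both had separate groups with intervals that include 0. Pcp2 (0.10 ± 0.11) and the glutamate transporter Slc1a6 (0.17 ± 0.11) overlapped. The mean of the 12 genes was 9.44, 9.44 and 9.46 in the dosed and 9.34, 9.39 and 9.36 in the undosed litters. The median was 0.06 without the litter of dam 18 and 0.05 without that of dam 1.

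Granule cell precursors are the dividing cells that supply most neurons of the brain. Nhlh1, a transcription factor of newly born granule neurons, was at 9.53, 10.09 and 9.86 in the dosed litters and at 9.34, 9.36 and 9.42 in the undosed litters. All dosed litters were above all undosed litters, by 0.45 ± 0.14 (95% interval 0.17 to 0.73; adjusted p = 0.579, limma). Zic1, a zinc finger factor of the lineage, was at 8.14, 8.08 and 8.38 against 7.89, 8.05 and 7.96 (0.24 ± 0.18), and Mycn, the target of sonic hedgehog, at 9.74, 9.93 and 10.06 against 9.84, 9.72 and 9.71 (0.15 ± 0.12). Ccnd1, the cyclin of the G1 phase, overlapped at -0.13 ± 0.18. In the list as a whole 8 of 11 expressed genes were higher, with a median of 0.06 that was 0.0078 without dam 18 and 0.14 without dam 15. Of the 12 expressed genes of mature granule cells 7 were higher and 5 lower, with a median of 0.04 that was -0.0074 without dam 1 and 0.12 without dam 7. Slc17a7, the vesicular glutamate transporter, differed by 0.20 ± 0.14, Nrn1, neuritin, by 0.13 ± 0.11 and Neurod1 by 0.08 ± 0.12. A second Slc17a7 probe set, of lower signal, was separate at 0.31 (unadjusted p = 0.0324, limma). Gabra6, a late granule cell marker, did not pass the expression filter.

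Genes of the cell cycle were higher as a list, each by a small amount. The mean was higher for 28 of 32 expressed genes, or 87.5% against 57.1% of all genes, with a median of 0.12. The 3 dosed litters lay above all undosed litters for 9 members, or 28.1% against 10.6% of all genes, and 2 members, or 6.25% against 3.44%, had an unadjusted p under 0.05. Aurkb, the mitotic kinase aurora B, was at 8.23, 8.15 and 8.19 in the dosed and at 7.93, 7.99 and 7.94 in the undosed litters (0.24 ± 0.10, adjusted p = 0.907, limma). Tacc3, a spindle protein, was at 8.59, 8.16 and 8.29 against 8.05, 7.95 and 7.94 (0.37 ± 0.17). Cks2, a subunit of cyclin-dependent kinases, was at 9.91, 9.98 and 9.95 against 9.64, 9.50 and 9.55 (0.38 ± 0.24). In these 3 genes no litter crossed over. The related Cks1b (0.22 ± 0.11) and thymidine kinase, Tk1 (0.28 ± 0.15), also had separate groups, although a second Tk1 probe set overlapped at 0.05, and Cdca3, a trigger of mitotic entry, was separate in the opposite direction (-0.18 ± 0.13). The classical markers of dividing cells differed less. Top2a, a topoisomerase, was at 10.27, 10.16 and 10.16 against 10.12, 10.11 and 10.15 (0.08 ± 0.17), separate by a narrow gap, and Mki67 differed by 0.17 ± 0.18 with overlapping groups. The count of 2 at an unadjusted p under 0.05 became 0 without dam 13 and 1 without dam 7 or dam 18. On centring each array on its median, or on quantile normalization of the 23 arrays, it was 0, as it was with all 24 arrays fitted. With only the 6 arrays fitted it was 10, where the count over all probe sets was 967.

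Among those of the 35 lists with an expressed member, receptors for GABA and glycine, the inhibitory transmitters, had the highest median. It was 0.26 over 8 expressed genes, of which 6 were higher. An unadjusted p under 0.05 was reached by 5 members, or 62.5% against 3.44% of all genes, and none passed the adjusted threshold. Gabrb2, the beta-2 subunit of the GABA-A receptor, was at 8.90, 8.54 and 8.51 in the dosed litters and at 8.46, 8.32 and 8.25 in the undosed litters (0.31 ± 0.11, adjusted p = 0.872, limma). Gabrg1, the gamma-1 subunit found in Bergmann glia, was at 7.42, 7.35 and 7.49 against 7.12, 7.34 and 7.02 (0.26 ± 0.10). These were the 2 of 8 members with separate groups, where 10.6% of all genes were separate and higher. For Gabrg1 the litters of dams 15 and 7 nearly touched. Gabbr2, a subunit of the metabotropic GABA-B receptor, was at 9.99, 9.85 and 10.22 against 9.97, 9.66 and 9.56 (0.29 ± 0.12). Glrb, the glycine receptor beta subunit, was at 7.57, 6.93 and 7.17 against 6.59, 7.07 and 6.91 (0.37 ± 0.16). Gphn, gephyrin, the scaffold that holds both receptor types at the synapse, was at 8.46, 8.12 and 8.56 against 8.24, 8.14 and 7.99 (0.26 ± 0.11). In all 3 genes the litter of dam 15 fell inside the undosed range. Gabrb1 was lower, at -0.18 ± 0.09. The count of 5 depended on single litters: it was 1 without dam 13, 2 without dam 12, 2 without dam 18, and 3 without dam 1 or dam 7. With all 24 arrays fitted it was 0.

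The vesicle cycle of the presynaptic terminal showed the same direction at a lower size. Of 23 expressed genes 18 were higher, with a median of 0.08, and 7 had an unadjusted p under 0.05, or 30.4% against 3.44% of all genes. Stx1a, syntaxin 1A of the fusion machinery, was at 8.32, 8.01 and 8.03 in the dosed and at 7.82, 7.87 and 7.76 in the undosed litters (0.30 ± 0.10, adjusted p = 0.786, limma); a second Stx1a probe set overlapped at 0.09. Slc32a1, which loads GABA and glycine into vesicles, was at 9.61, 9.53 and 9.56 against 9.34, 9.15 and 9.39 (0.27 ± 0.09, adjusted p = 0.836, limma). Sh3gl2, endophilin A1 of vesicle retrieval, was at 8.65, 8.56 and 8.59 against 8.50, 8.21 and 8.17 (0.30 ± 0.12), and Rab3a, a vesicle GTPase, at 9.66, 9.66 and 9.58 against 9.43, 9.44 and 9.43 (0.19 ± 0.09). For these 4 genes, on the probe set of highest signal, every dosed litter was above every undosed litter. They make up 17.4% of the list, where 10.6% of all genes were separate and higher. Synapsin 1, Syn1 (0.25 ± 0.10), bassoon, Bsn (0.19 ± 0.09), and Vamp1 (0.24 ± 0.11) overlapped, although a second Syn1 probe set was separate at 0.41. With the expressed probe sets of a gene averaged, Syn1 differed by 0.33, Stx1a by 0.20 and Vamp1 by 0.097. The count of 7 was 1 without dam 12, 2 without dam 13, 3 without dam 7, and 4 without dam 1 or dam 18, and it was 3 on quantile normalization, 4 on centring and 1 with all 24 arrays fitted as deposited. Gad1, which makes GABA, differed by 0.12 ± 0.09 with overlapping groups, while a second Gad1 probe set was separate at 0.30 (unadjusted p = 0.0465, limma). The list of inhibitory interneurons had a median of -0.01 over 7 genes. Of 14 expressed glutamate receptor genes 9 were higher and 5 lower; Grm8, a presynaptic metabotropic receptor, was at 9.54, 9.67 and 9.43 against 9.77, 9.71 and 9.79 (-0.21 ± 0.08, adjusted p = 0.842, limma), with separate groups.

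On the probe set of highest signal, Atp1b2 was the only member of the glial lists with an unadjusted p under 0.05. Of 18 expressed genes of astrocytes and Bergmann glia 14 were higher, with a median of 0.06; apart from Atp1b2, the water channel Aqp4 differed by 0.29 ± 0.18, Fabp7, the lipid-binding protein of Bergmann glia, by 0.09 ± 0.23, the intermediate filament Gfap by 0.04 ± 0.23 and the glutamate transporter Slc1a3 by 0.03 ± 0.09. All 4 had overlapping groups, but second probe sets differed by more, with separate groups for Aqp4 (0.43) and overlapping ones for Slc1a3 (0.33), each at an unadjusted p under 0.05. Of 7 expressed genes of myelinating oligodendrocytes 5 were higher, all 7 with overlapping groups, and the median was 0.18. It was -0.047 without dam 1 and 0.41 without dam 7. Mbp, myelin basic protein, was at 11.75, 11.59 and 11.45 in the dosed and at 10.95, 11.86 and 11.42 in the undosed litters. Its difference of 0.19 ± 0.26 rested on the low litter of dam 1 and was -0.05 without it. Mag, myelin-associated glycoprotein, had the same low litter (0.24 ± 0.29). The sodium pump list held 8 expressed genes, 4 higher and 4 lower, with Atp1b1, the neuronal beta-1 subunit, at 0.12 ± 0.09 and the pump regulator Fxyd1 at -0.15 ± 0.09.

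**Figure D3:**
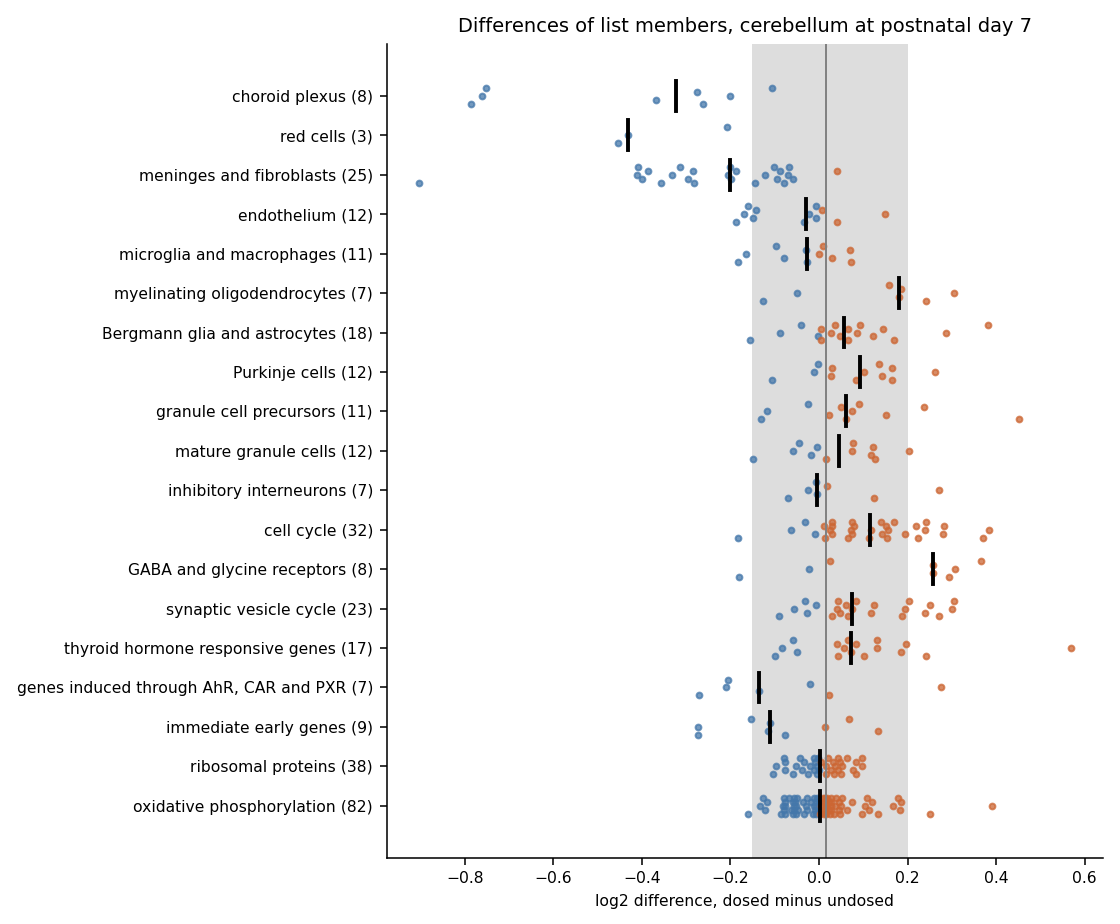
Log2 difference, dosed minus undosed (horizontal axis), of the expressed members of 19 gene lists (1 point a gene; number of members in brackets); black bars are list medians, the grey line is the median of all 6955 genes and the grey band runs from their 5th to their 95th percentile. Choroid plexus, red cell and meningeal members lie to the left, receptors for GABA and glycine to the right, and ribosomal and oxidative phosphorylation genes centre near 0.

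Genes controlled by AhR and related xenobiotic receptors were more often lower than higher among the few expressed. Of 18 such genes on the array 7 were expressed, 2 with a higher and 5 with a lower mean, and the median was -0.14. The groups were separate and lower for 3, or 42.9% against 4.93% of all genes, and 2 were lower at an unadjusted p under 0.05, or 28.6% against 1.35%. At the stricter filter, which keeps fewer members, the median was 0.0019. Cyp1a1, the classical AhR target, did not pass the expression filter, with means of 6.17 in the dosed and 6.32 in the undosed litters, and the receptor Ahr and its partner Arnt lay below it too. Tiparp is an ADP-ribosyltransferase that AhR induces and that in turn represses the receptor. It was at 8.58, 8.46 and 8.54 in the dosed litters and at 8.29, 8.11 and 8.36 in the undosed litters. Its groups were separate, with a difference of 0.28 ± 0.11 (95% interval 0.04 to 0.51; adjusted p = 0.907, limma). Cyp1b1, another target of the receptor, was at 7.86, 7.73 and 7.64 against 8.05, 7.83 and 7.98, overlapping and in the opposite direction (-0.21 ± 0.14, 95% interval -0.51 to 0.09). Ephx1, microsomal epoxide hydrolase, was at 7.63, 7.39 and 7.22 against 7.66, 7.72 and 7.67 (-0.27 ± 0.10). Cyp1a2, an arylamine-oxidising P450, was at 6.82, 6.99 and 6.93 against 7.21, 7.13 and 7.00 (-0.20 ± 0.09), close to the filter. The quinone reductase Nqo1 differed by -0.14 ± 0.16. For Ephx1, Cyp1a2 and Nqo1 the dosed litters lay below the undosed litters. However, for Ephx1 the litter of dam 12 nearly reached them, and for Cyp1a2 the dosed 6.99 nearly reached the undosed 7.00.

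The promoters of the 2 targets with opposite direction are shown because both hold the core of the AhR response element. AhR binds, with its partner Arnt, to GCGTG, which reads CACGC on the other strand. The sequences are the 250 bases before the RefSeq start of each gene in build GRCr8, 5′ to 3′ on the gene's strand, with matches on either strand in capitals. Tiparp lies at chr2:152063519-152063768 on the plus strand and Cyp1b1 at chr6:21094315-21094564 on the plus strand.
Tiparp: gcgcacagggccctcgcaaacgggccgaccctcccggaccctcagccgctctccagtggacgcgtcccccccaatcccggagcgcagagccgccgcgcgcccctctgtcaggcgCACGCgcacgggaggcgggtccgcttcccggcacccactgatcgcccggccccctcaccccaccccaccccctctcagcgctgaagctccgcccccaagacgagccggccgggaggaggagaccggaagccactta
Cyp1b1: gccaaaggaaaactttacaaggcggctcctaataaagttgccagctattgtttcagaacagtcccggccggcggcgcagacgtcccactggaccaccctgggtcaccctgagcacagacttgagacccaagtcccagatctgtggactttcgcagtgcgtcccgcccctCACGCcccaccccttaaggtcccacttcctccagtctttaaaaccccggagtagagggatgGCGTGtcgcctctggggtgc
Tiparp had 1 match and Cyp1b1 2. Such a match is common: it occurred in 25.9% of 33469 promoters of this length, each counted singly. Of the 5842 expressed genes found in the table, 48.5% had a match in at least 1 of their promoters. The 2 shares are therefore in different units and cannot be compared. The median difference was 0.02 in expressed genes with a match and 0.01 in those without. Of the 18 xenobiotic genes 14 had a promoter in the table, and 5 held a match in at least 1 promoter. A match is a string of letters and not a measured site.

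Antioxidant genes split evenly, 6 higher and 6 lower of 12 expressed. Catalase, Cat, which breaks down hydrogen peroxide, was at 9.32, 9.13 and 9.04 in the dosed and at 9.02, 8.98 and 8.89 in the undosed litters (0.20 ± 0.08, adjusted p = 0.907, limma), with separate groups.

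Among genes that respond to thyroid hormone the dosed and undosed litters overlapped for every expressed gene. Of these 17 genes 13 were higher and 4 lower, with a median of 0.07 that was 0.0099 without dam 1 and 0.12 without dam 7. None was separate, where 10.6% of all genes were separate and higher and 4.93% separate and lower, and 1 was higher at an unadjusted p under 0.05, or 5.88% against 3.44%. Klf9, a zinc finger factor that thyroid hormone induces directly, was at 8.42, 8.26 and 8.42 against 8.02, 8.53 and 8.37 (0.07 ± 0.12, 95% interval -0.19 to 0.32). Nrgn, neurogranin, a calmodulin-binding postsynaptic protein, was at 8.44, 8.22 and 8.19 against 8.39, 8.30 and 8.03 (0.04 ± 0.11). Cirbp, the cold-inducible RNA-binding protein, was at 8.06, 8.05 and 8.51 against 7.34, 7.46 and 8.11 (0.57 ± 0.26, adjusted p = 0.907, limma), overlapping through dam 13. The neurofilament Nefl differed by 0.20 ± 0.11. Among receptors and their partners Ncor1, the corepressor that silences target genes when the receptor is empty, was at 9.46, 9.40 and 9.48 against 9.26, 9.33 and 9.23 (0.17 ± 0.08, adjusted p = 0.907, limma), with separate groups. Thra, the main thyroid hormone receptor of neurons, was at 10.65, 10.69 and 10.56 against 10.74, 10.85 and 10.65 (-0.12 ± 0.11). Of the 8 expressed genes of hormone transport, conversion and reception 4 were higher and 4 lower. The deiodinase Dio2, the receptor Thrb and the corepressor Hr did not pass the expression filter.

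Calcium signalling genes divided 24 higher to 17 lower of 41 expressed, with a median of 0.02, the same as all genes. The ryanodine receptors Ryr1 and Ryr2, release channels that PCB congeners can sensitise, did not pass the expression filter. Itpr1, the inositol trisphosphate receptor of Purkinje cells, was at 10.10, 10.10 and 10.39 against 10.06, 10.16 and 10.12 (0.08 ± 0.11). Camkk1, a kinase activated by calmodulin, differed by 0.19 ± 0.09, Plcb1, the phospholipase that makes inositol trisphosphate, by 0.17 ± 0.08, and Camk4 by 0.07 ± 0.10, all with overlapping groups. Immediate early genes, the first to respond to neuronal activity, were lower in 6 of 9 expressed members; Nr4a1 was at 6.64, 6.76 and 6.96 against 7.18, 7.00 and 7.00 (-0.27 ± 0.13) and Junb differed by -0.15 ± 0.10.

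Metabolic lists stayed near 0. Of 18 expressed genes of cholesterol synthesis 14 were higher, with a median of 0.04; Idi1, an isomerase of the isoprenoid steps, was at 9.35, 9.16 and 9.31 against 8.95, 9.01 and 9.10 (0.25 ± 0.21), and the desaturase Sc5d differed by 0.17 ± 0.15, both with separate groups. Ribosomal protein genes divided 19 to 19 with a median of 0.00, and oxidative phosphorylation genes 42 higher to 40 lower with a median of 0.00. Of 12 expressed genes of the insulin-like growth factor system 6 were higher and 6 lower; Igfbp2, a binding protein made by meninges and plexus, was at 10.87, 10.74 and 10.76 against 10.81, 11.22 and 11.23 (-0.30 ± 0.17). Steroid and fatty acid dehydrogenases had a median of 0.00 over 9 genes, glucocorticoid and clock genes -0.03 over 10, partners of AhR -0.01 over 3, oligodendrocyte precursor genes 0.03 over 5 and unipolar brush cell and deep nuclear genes 0.01 over 2, while no ependymal gene passed the filter. The precursor factor Atoh1 and the ryanodine receptor Ryr3 are not analysed here, since no probe set named either alone.

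The dosing difference in cerebellum was then set against that in hippocampus of the same dams at the same age, by testing the difference between the 2 effects. Of 9520 probe sets 1 was called, 0.0105% (limma, adjusted p under 0.05), and 1247, or 13.1%, had an unadjusted p under 0.05. The called gene was Atp1b2. In hippocampus its undosed litters had a mean of 9.54 ± 0.04 (SD, n = 3) and its dosed litters 9.26 ± 0.06 (SD, n = 3), so that the direction was opposite to cerebellum, at -0.28 ± 0.07. The 2 effects differed by 0.66 ± 0.11 (adjusted p = 0.0291, limma). Over 23 alternatives the difference stayed between 0.61 and 0.70 while the adjusted p ran from 0.0130 to 0.676. The call was lost without the undosed cerebellum array of dam 13 (0.187), which had a high Xist level. It was also lost without 7 other single arrays (0.0504 to 0.116), on quantile normalization (0.0603) and on centring (0.101). The same held with the dam as a fixed replicate block (0.0539). In that block 4 probe sets were called, and without the hippocampus array of dosed dam 18 there were 12.

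Some genes had opposite signs in the 2 tissues without a called difference. Socs6, a suppressor of cytokine signalling, was 0.24 ± 0.10 higher in cerebellum and at -0.47 in hippocampus (adjusted p of the difference 0.0860, limma). Slc4a10, a sodium bicarbonate transporter of neurons and plexus, was at 0.18 ± 0.13 and -0.71, and Hapln4, a link protein of the perineuronal matrix, at -0.23 ± 0.08 and 0.30, each with the same adjusted p of 0.0860. For the inhibitory receptors the median was 0.26 in cerebellum and -0.15 in hippocampus, where 1 of 8 was higher; the adjusted p of the difference was 0.186 for Gabrg1 and 0.221 for Gphn (limma). Meningeal genes were lower in both tissues, with a median of -0.36 in hippocampus and 21 of 25 lower, and Cdkn1c, at -1.20 ± 0.24 (adjusted p = 0.0407, limma), was among 32 probe sets called there, 0.336% of those tested. Pik3r1 was higher in both, by 0.64 ± 0.19 and 0.69 ± 0.19. The share of all genes with a higher mean was not counted in hippocampus, so the list counts there have no background. Other lists leaned in both directions in hippocampus. The mean was higher for 2 of 38 ribosomal protein genes (median -0.12) and 21 of 82 oxidative phosphorylation genes, but for 13 of 17 thyroid hormone responsive genes.

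**Figure D4:**
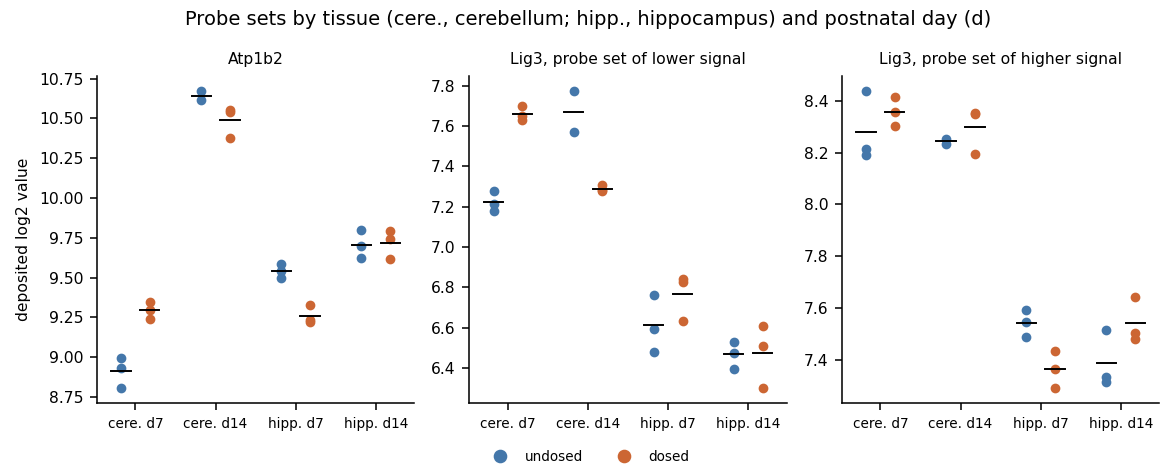
Deposited log2 values (vertical axis, a separate scale in each panel) of the Atp1b2 probe set and both Lig3 probe sets by tissue and postnatal day; each point is 1 litter, the bars are group means, and n is 3 except for 2 undosed cerebellum arrays on day 14. Atp1b2 is higher in dosed cerebellum and lower in dosed hippocampus on day 7; the Lig3 probe set of lower signal is higher in dosed cerebellum on day 7 and lower on day 14, while the other is not.

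The same test between ages in cerebellum called 1 probe set of 9520, 0.0105%, with 618, or 6.49%, at an unadjusted p under 0.05. The undosed group of day 14 had 2 arrays in this test, and that of dam 1 had a high Xist level. The called probe set was 1 of 2 for Lig3, a DNA ligase that seals breaks in nuclear and mitochondrial DNA. On day 7 it was at 7.63, 7.65 and 7.70 in the dosed litters and at 7.28, 7.21 and 7.18 in the undosed litters, a difference of 0.44 ± 0.09 (adjusted p = 0.288, limma). On day 14 the dosed mean was 7.29 ± 0.02 (SD, n = 3) and the undosed mean 7.67 ± 0.15 (SD, n = 2), so the order was turned. The 2 effects differed by 0.82 ± 0.13 (adjusted p = 0.0322, limma). The other expressed Lig3 probe set, which has the higher signal, disagreed, with effects of 0.08 ± 0.08 and 0.06 ± 0.09 and a difference of 0.02. The call did not survive leaving out 10 of the 11 cerebellum arrays in turn (adjusted p 0.0663 to 0.999), quantile normalization (0.0525) or centring (0.0778), while the difference stayed between 0.69 and 1.16 over 21 alternatives. Atp1b2 differed between ages by 0.54 ± 0.11 (adjusted p = 0.261, limma), and its level in undosed cerebellum was 8.91 on day 7 and 10.64 on day 14.

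Across ages the cell cycle list had opposite signs. On day 14 its median was -0.22 and 0 of 32 genes had a higher mean, against 28 of 32 on day 7. The choroid plexus list turned the other way, from a median of -0.32 on day 7 to 0.33 on day 14, with 7 of 8 genes higher, and the red cell genes went from -0.43 to 1.01. The plexus level varied widely on day 14: Ttr ran from 7.02 to 13.28 in the dosed and from 7.36 to 12.28 in the 2 undosed litters. No member of the 3 lists passed the test of the difference between ages (smallest adjusted p = 0.632, limma). The share of all genes with a higher mean was not counted on day 14, so the list counts there have no background. Other lists leaned in both directions on day 14. The mean was higher for 1 of 18 cholesterol synthesis and 22 of 82 oxidative phosphorylation genes, but for 11 of 12 antioxidant genes. Purb, a single-stranded DNA-binding factor, was 0.26 ± 0.08 higher on day 7, where a second probe set overlapped at -0.03, and at -0.30 on day 14 (adjusted p of the difference 0.280, limma), and Lbr went from 0.49 to -0.39 (0.502).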

How the data were processed

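RNA of cerebellum and hippocampus was hybridised to 24 Affymetrix rat arrays. The deposited table holds log2 values for 15923 probe sets; how the authors computed and normalized them is not given in the sources used here, and the log base was taken from the range of the values. The number of arrays limits the precision. Here the values were used as deposited. limma 3.58.1 in R 4.3.3 fitted 1 mean for each of 8 groups to 23 arrays, with empirical Bayes moderation, two-sided tests and Benjamini-Hochberg adjustment over 9520 expressed probe sets. The cerebellum array of undosed dam 13 on day 14 was left out. Of the probe sets 12783 carried 1 gene symbol, 312 several and 2771 none; only the first kind was named. The fit was tested on simulated data. Dams are nested in dosing, so a fixed dam block cannot enter the dosing comparison itself. The same dams gave both tissues and both ages, so such a block can enter either difference between effects. It was fitted only for the difference between tissues, and pairing by dam was not tested in this way between ages. Arrays of the same dam correlated between tissues, after group means were removed, at -0.04 to 0.32 (median 0.21). A gene was represented by its expressed probe set of highest mean. Named were the 10 genes whose representing probe set had the smallest p and the 5 largest separate differences in each direction, fixed genes, and the leading or described members of 35 lists. The members and lists were chosen with earlier results of these data known. Promoters came from RefSeq (GRCr8).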

Additional observations from a re-analysis of the deposited data

Results flagged for a closer look

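The dosing effect on Atp1b2 differed between tissues on day 7 by 0.66 (adjusted p = 0.0291, limma): all 3 dosed cerebellum values lay above the undosed ones and all 3 dosed hippocampus values below them. The dosing effect on the Lig3 probe set of lower signal differed between ages in cerebellum by 0.82 (adjusted p = 0.0322, limma). Its groups were separate in opposite order on day 7 and day 14, and the other Lig3 probe set did not show it. Both calls were fragile: that of Atp1b2 was lost in 14 of 23 alternatives and that of Lig3 in 17 of 21.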

How the results depend on the processing

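The number of probe sets called in the dosing comparison was 0 in 18 of 19 alternatives and 2 without the undosed litter of dam 1, so over the arrays left out singly it ranged from 0 to 2. The count at an unadjusted p under 0.05 moved more, from 515 to 76 with all 24 arrays as deposited, 144 with all 24 after quantile normalization, 967 with only the 6 arrays compared, 803 without a filter and 334 at the stricter filter. For the difference between tissues the 1 call became 0 on quantile normalization of the 23 arrays, on centring, with all 24 arrays under either scaling and without the 4 arrays of high Xist level; it became 2 without a filter, and 4 with the dam as a fixed replicate block, which pairs the tissues of a dam. With the dam as a random replicate block the counts were 0 for dosing, 1 between tissues and 1 between ages. Leaving out each of the 12 arrays gave 0 to 12 calls between tissues. For the difference between ages the 1 call became 0 on quantile normalization, on centring, with all 24 arrays, with only the cerebellum arrays, at the stricter filter, with an intensity trend and without the arrays of high Xist level, and leaving out each array gave 0 to 1. The cerebellum arrays alone give no difference between tissues, and the 6 arrays alone neither difference. Where no construction of the alternative shows it, the cause was not tested. Of the named genes, Slc1a3 was at -0.0022 on centring and Nrgn at -0.063 without the array of the 6 that had a high Xist level. Without single arrays Slc1a3 ran from -0.012 to 0.067, Nrgn from -0.063 to 0.12, Gfap from -0.13 to 0.22, Itpr1 from -0.012 to 0.13, Mbp from -0.047 to 0.41 and Klf9 from -0.078 to 0.18; the remaining named genes kept their direction in every alternative that gave a value. Leaving out the 4 arrays of high Xist level, single arrays for the 2 differences between effects, and the recounts of list members were chosen after seeing the data.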
